A study of Arabidopsis thaliana with 12 samples.

Results

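The transcripts described here are nad1, nad4, nad4L and ccb382, 4 genes of the mitochondrial genome of Arabidopsis thaliana, out of 13356 genes that have a probe set of their own. Their probe sets were those that the platform annotation ties to 1 of these symbols alone, which gave 10 of the 22746 probe sets tested: 7 for nad1 and 1 each for nad4, nad4L and ccb382. All 10 were kept, with no filter on low values. The probe set with the highest mean, 257324_at for nad1, 244929_at for nad4, 244902_at for nad4L and 244912_at for ccb382, stands for its gene in counts of genes. The files give neither the position of a probe set within its gene nor its probe sequences, so no sequence or coordinate is given.

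Transcripts were measured on 12 Affymetrix arrays in whole 14-day-old seedlings of the Col-0 ecotype. Every seedling, controls included, carried the transgene 35S:HF-RPL18B, which puts a His6-FLAG tag on cytosolic ribosomal protein L18B under the near-constitutive 35S promoter of a plant virus. Midway through the day the seedlings were either kept in light for 1 h, darkened for 1 h, or darkened for 1 h and then lit again for 10 min, a condition called reillumination below. For each condition RNA was taken from the clarified extract (total RNA) and from the ribosomes captured out of that extract on anti-FLAG beads (polysomal RNA), which makes 6 groups with 2 arrays each. Each of the 2 is described in the labels as an independent biological replicate.

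Mitochondria keep a small genome of their own, whose transcripts are translated inside the organelle by mitochondrial ribosomes. The tagged L18B is a protein of cytosolic ribosomes. The genes nad1, nad4 and nad4L code for membrane subunits of complex I, the NADH dehydrogenase that feeds electrons into the respiratory chain. NAD1 and NAD4 are large hydrophobic subunits of the membrane arm, and NAD4L is a small one. The nad1 transcript of plants is assembled by trans-splicing from separately transcribed pieces, and nad4 contains introns. In the reference annotation (TAIR10.1) nad4L lies next to cox3 and atp4, nad4 between ccmFC and mttB, and ccb382 between ccmC and cox3. The gene ccb382, also called ccmFN1, codes for part of the machinery that attaches haem to c-type cytochromes, the electron carriers further along the chain. Plant mitochondrial transcripts mostly lack the long poly(A) tails of nuclear mRNAs, and the labelling kit named in the labels starts from poly(A), so a level here is that of the part of each transcript that was primed. Arabidopsis also holds a copy of much of the mitochondrial genome on chromosome 2, and RNA from such a copy cannot be told apart from mitochondrial RNA by these probe sets.

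Replicate arrays of a group correlated at 0.993 to 0.995 across probe sets. As a sign of tissue, 1 of 6 green-tissue markers had a probe set of its own and was above the array median in total RNA, and 2 of 4 measured root markers were. Between its 3′ and 5′ control probe sets GAPDH differed on the log2 scale by 0.89 to 1.25 in the 6 total and by 0.90 to 1.39 in the 6 polysomal arrays. The same difference for ubiquitin was 1.51 to 1.62 in total and 1.31 to 1.52 in polysomal RNA, mostly lower in the latter. For actin it was 3.72 to 4.59 in total and 3.59 to 3.94 in polysomal RNA, with medians of 4.24 and 3.77. The part of these controls in the differences between pools was not tested. Values below are log2 RMA expression, which RMA sets against all other probe sets, and each probe set's level is set only against the lower quartile of its array, not against another probe set's. In bulk tissue, fewer cells or mitochondria and less RNA in each cannot be told apart.

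The lower quartile of all probe sets on an array, between log2 4.07 and 4.17, served as the mark of a low level. In total RNA nad4 stood 3.81 to 4.33 above it on the log2 scale, ccb382 2.96 to 3.71 and nad1 2.71 to 3.22. The small-subunit transcript nad4L was 0.74 to 1.42 above it. In polysomal RNA nad4 was 0.82 to 1.80, ccb382 1.09 to 1.82, nad1 0.43 to 1.26 and nad4L 0.03 to 0.33 above the lower quartile. All 12 arrays thus had the 4 transcripts above the lower quartile, with nad4L nearly at it in the ribosome capture.

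**Figure D1:**
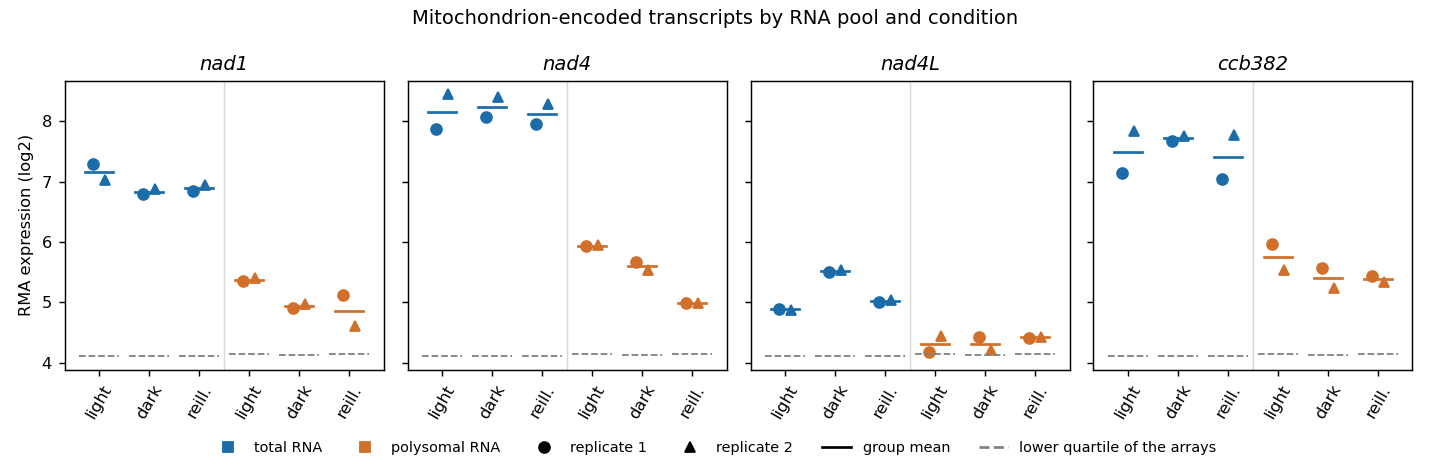
Expression of nad1, nad4, nad4L and ccb382 (log2 RMA, vertical axis) in the 6 groups, total RNA in blue and polysomal RNA in orange, with each replicate as a point, the group mean as a bar and the mean lower quartile of the 2 arrays as a dashed line. Every total RNA point lies above every polysomal point of the same gene, and the polysomal points of nad4L lie within 0.33 of the lower quartile.

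The comparison of polysomal with total RNA asks which transcripts accompany the tagged ribosomes. All 4 mitochondrial transcripts were lower in the capture than in the extract it came from. The nad4 transcript read log2 7.87 and 8.45 in light, 8.07 and 8.40 in dark and 7.95 and 8.29 in reilluminated total RNA. In polysomal RNA it read 5.93 and 5.95 in light, 5.66 and 5.53 in darkness and 4.99 and 4.99 after reillumination. The 2 pools did not overlap, and the polysomal values were highest in light and lowest after reillumination. Averaged over the 3 conditions, nad4 was lower by log2 -2.67 ± 0.11 (standard error of the fit, n = 6 arrays per pool), or 6.35-fold (limma, adjusted p = 6.32e-09). Only 0.35% of the probe sets had a more negative difference.

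The ccb382 transcript read log2 7.15 and 7.84 in light, 7.68 and 7.75 in dark and 7.04 and 7.77 in reilluminated total RNA. In polysomal RNA its values were 5.97 and 5.54, 5.56 and 5.24, and 5.43 and 5.34 in the same order. Its total RNA replicates spread widely in light and after reillumination, by 0.68 and 0.73, yet the pools stayed apart in every condition. The mean difference was log2 -2.03 ± 0.15, or 4.08-fold (limma, adjusted p = 9.03e-07).

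For nad1, probe set 257324_at read log2 7.29 and 7.02 in light, 6.79 and 6.88 in dark and 6.84 and 6.94 in reilluminated total RNA. The polysomal values were 5.35 and 5.40, 4.90 and 4.97, and 5.12 and 4.60. Both pools were highest in light, and they did not overlap. The mean difference was log2 -1.90 ± 0.09, or 3.74-fold (limma, adjusted p = 3.37e-08).

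The nad4L transcript read log2 4.89 and 4.87 in light, 5.50 and 5.53 in dark and 5.01 and 5.04 in reilluminated total RNA. In polysomal RNA it read 4.17 and 4.44, 4.42 and 4.20, and 4.41 and 4.43. The total RNA replicates lay within 0.03 of each other and ranked dark, reillumination, light without overlap, whereas the 3 polysomal groups overlapped. With 2 arrays per group, how many other probe sets rank without overlap was not counted. Its mean difference was log2 -0.80 ± 0.07, or 1.74-fold (limma, adjusted p = 2.76e-06). With every polysomal value within 0.33 of the lower quartile, this size may be limited by the low end of the scale and is not ranked against the other genes.

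Each condition by itself gave the same 4 calls. In light 4 of 4 transcripts were called lower in polysomal RNA, where 17.6% of all probe sets were. In darkness it was 4 of 4 against 11.8%, after reillumination 4 of 4 against 14.6%, and for the mean of the 3 conditions 4 of 4 against 23.8%. Polysomal nad4 read 21.4% of its total RNA value in light, 16.0% in darkness and 11.4% after reillumination. For ccb382 these ratios were 29.9%, 20.1% and 24.6%, and for nad1 29.1%, 26.8% and 24.5%. For nad4L they were 67.1%, 43.4% and 65.7%. RMA set both pools against all other probe sets, so the ratios are not the part of a transcript's RNA that was captured. The median of the 4 mean differences was log2 -1.97, and -1.24 over the 10 probe sets of these genes, beside 0.03 over all probe sets. All of these calls held under each alternative processing and with any 1 array left out.

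The 7 nad1 probe sets did not all give the same difference. Probe sets 257324_at, 257322_at and 257325_at were 1.58 to 3.22 above the lower quartile in total RNA and differed between the pools by -1.90 ± 0.09, -1.74 ± 0.08 and -1.69 ± 0.11 on the log2 scale. The latter 2 fell to the lower quartile in polysomal RNA, with means 0.05 and 0.08 above it. Probe set 257321_at, 0.29 to 0.79 above the lower quartile in total RNA, differed by -0.46 ± 0.09 (limma, adjusted p = 0.00131). Probe set 257323_at was below the lower quartile on all 12 arrays and still differed by -0.51 ± 0.08 (limma, adjusted p = 0.000195). The remaining pair, 257327_at and 257329_at, lay within 0.53 of the lower quartile in both pools, and their differences were 0.03 ± 0.08 and -0.04 ± 0.09 (limma, adjusted p = 0.752 and 0.759). Counted by probe set, 8 of the 10 were called lower for the mean of the 3 conditions, and 7, 7 and 8 in light, darkness and reillumination, beside the same 23.8%, 17.6%, 11.8% and 14.6% of all probe sets.

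**Figure D2:**
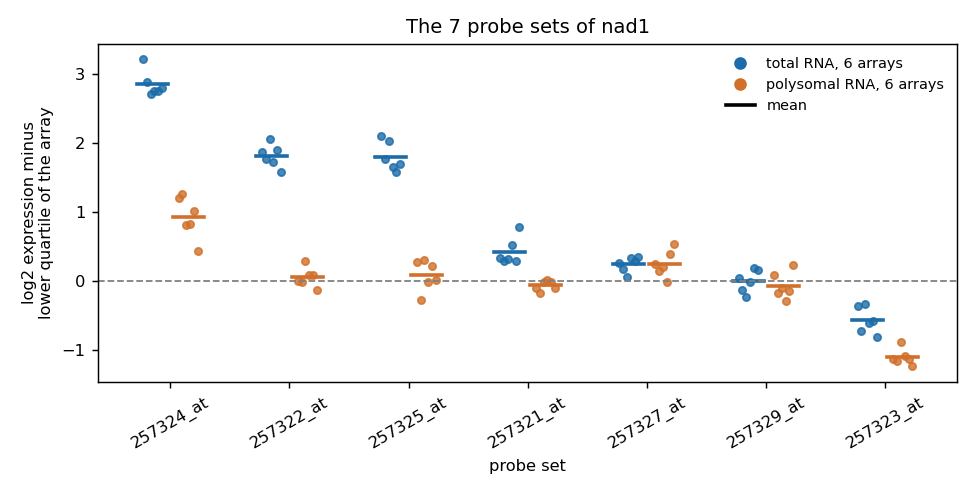
The 7 probe sets of nad1 (horizontal axis) as log2 expression minus the lower quartile of the same array (vertical axis), with 6 total arrays in blue, 6 polysomal arrays in orange and the mean as a bar. The probe sets 257324_at, 257322_at and 257325_at drop between the pools by -1.90, -1.74 and -1.69, while 257327_at and 257329_at lie near the lower quartile in both pools.

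Of the 12 other mitochondrion-encoded genes with a probe set of their own, 8 were called lower in polysomal RNA for the mean of the 3 conditions and 0 higher, where 23.8% of all probe sets were called lower and 22.1% higher, with a median of log2 -0.70. They included cox1 (-2.00 ± 0.13) and cox2 (-1.62 ± 0.12), for core subunits of cytochrome c oxidase, and nad9 (-1.77 ± 0.08) and nad5 (-1.68 ± 0.10), for other complex I subunits. In polysomal RNA cox2, nad9 and nad5 averaged -0.37, -0.27 and -0.27 from the lower quartile. The size of these 3 differences may be limited by the low end of the scale. Of the haem-attachment relatives of ccb382, ccb452 (ccmFC) differed by -1.26 ± 0.10 and ccb206 (ccmB) by -0.50 ± 0.07, while ccb203 (ccmFN2) was at -0.02 ± 0.08 and not called. The not called genes were nad2, nad7, matR and ccb203, whose mean total RNA levels were -0.31 to 0.49 from the lower quartile. The called ccb206, at 0.46 above the lower quartile, lay in the same range. Over the 23 mitochondrion-encoded probe sets, the level in total RNA and the difference between the pools had a Pearson r of -0.88. Both quantities use the total RNA values, and the part of the level in the calls was not tested.

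**Figure D3:**
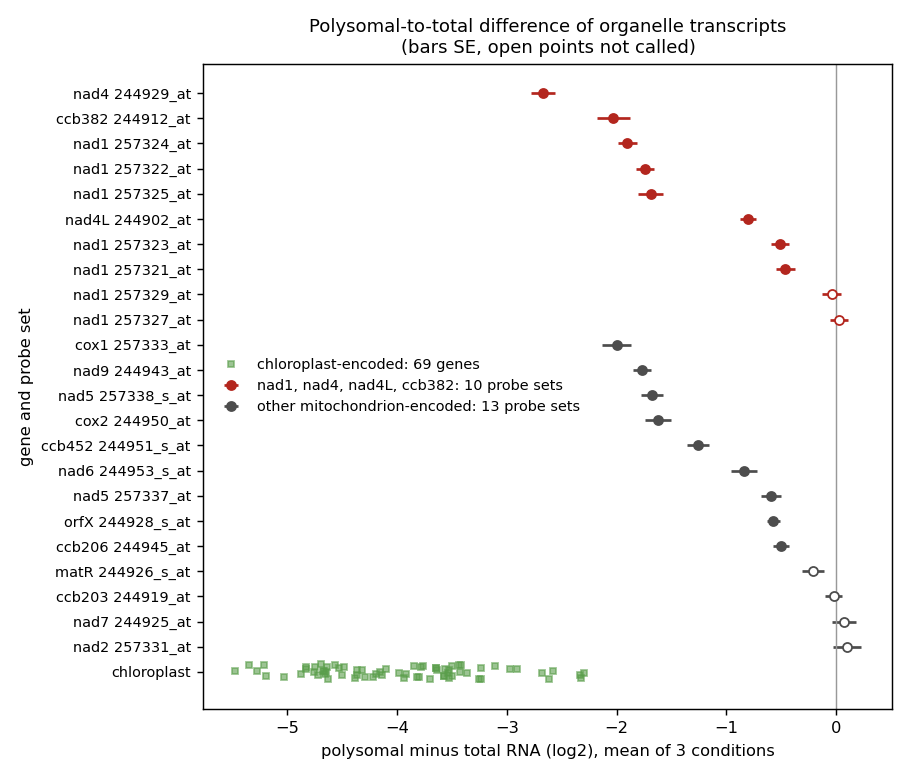
Polysomal minus total RNA (horizontal axis, log2, mean of 3 conditions) for the 10 probe sets of nad1, nad4, nad4L and ccb382 in red and 13 other mitochondrion-encoded probe sets in grey (vertical axis), with standard errors and open points where not called, and for 69 chloroplast-encoded genes as green squares. The red points run from 0.03 to -2.67, and the chloroplast-encoded genes lie between -5.48 and -2.30.

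The chloroplast-encoded transcripts, which are also translated inside an organelle, were called lower for 69 of 69 genes, where 23.8% of all probe sets were, with a median of log2 -3.94. The transcripts of nuclear genes for complex I went the other way. Of 24 listed genes 12 were measured, and of these 8 were called higher in polysomal RNA for the mean of the 3 conditions, where 22.1% of all probe sets were, and 2 lower, with a median of 0.50. AT2G02050 (0.88 ± 0.06) and FRO1 (0.70 ± 0.08), for subunits of the complex, were among those called higher. GLDH, the last enzyme of ascorbate synthesis and an assembly factor of complex I, was at -0.45 ± 0.08 and called lower. Of 7 listed nuclear genes of the c-type cytochromes and their maturation 5 were measured, and 3 were called higher: CYTC-2 (1.24 ± 0.08) and CYTC-1 (0.60 ± 0.07), which code for cytochrome c, and CCMH (0.46 ± 0.06), which codes for a nuclear-encoded partner in haem attachment. AT5G40810, for cytochrome c1, was called lower at -0.44 ± 0.06. Of 7 listed nuclear genes for mitochondrial transcription and nad splicing 2 were measured: AT5G15700, for an organellar RNA polymerase, was called lower (-0.40 ± 0.09), and OTP43, needed to splice nad1, was not called in any comparison.

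Darkness, compared with light, raised 1 of the 4 transcripts in total RNA, where 9.46% of all probe sets were called in either direction. This was nad4L, which rose by log2 0.63 ± 0.12 (95% interval 0.38 to 0.89), or 1.55-fold (limma, adjusted p = 0.00551, n = 2 arrays per group). Both dark values, 5.50 and 5.53, exceeded both light values, 4.89 and 4.87. The call held under all 19 alternatives, with adjusted p between 0.0016 and 0.0475. The other nad genes and ccb382 were not called: nad1 was at -0.32 (95% interval -0.66 to 0.03), nad4 at 0.07 (-0.33 to 0.47) and ccb382 at 0.22 (-0.34 to 0.78). For nad1 the other 6 probe sets gave -0.09 to 0.12, so the lower value of 257324_at in darkness was not shared by them. Total RNA replicates of nad4 and ccb382 differed by up to 0.58 and 0.73, with replicate 2 higher in each of the 3 conditions.

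After 10 min of light nad4L in total RNA stood at 5.01 and 5.04, between its dark and its light values. Its difference from darkness was -0.49 ± 0.12 (95% interval -0.75 to -0.23), with an unadjusted p of 0.00149 and a limma adjusted p of 0.949. In this comparison 0 of the 4 transcripts were called, as was 0% of all probe sets, while 980 of 22746 had an unadjusted p under 0.05. Against light, reilluminated total RNA also gave 0 of 4 calls in limma, and 0 of 4 at an unadjusted p under 0.05, where 7.91% of all probe sets were called. There nad4L was at 0.14 (95% interval -0.11 to 0.40), nad1 at -0.27 (-0.61 to 0.08), nad4 at -0.05 (-0.45 to 0.35) and ccb382 at -0.09 (-0.64 to 0.47).

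In polysomal RNA nad4 was the only 1 of the 4 transcripts called between conditions. It stood at 5.93 and 5.95 in light and at 4.99 on both reilluminated arrays, a fall by 0.95 ± 0.18 on the log2 scale (95% interval -1.35 to -0.55), or 1.93-fold (limma, adjusted p = 0.00731). It was the 1 called of 4, where 8.88% of all probe sets were called. The call was just lost without the light polysomal array of replicate 2, at -0.94 with an adjusted p of 0.0537, in a range of 0.000423 to 0.0537 over the alternatives. Darkness lay between: nad4 was at -0.34 (95% interval -0.74 to 0.06) from light to dark and at -0.61 (-1.01 to -0.20) from dark to reillumination. Neither step was called (limma, adjusted p = 0.253 and 0.0679). The polysomal values ranked light, dark, reillumination without overlap, on 2 arrays per group. How many other probe sets rank without overlap was not counted.

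With the replicate number as a block, the step of nad4 from dark to reillumination was called lower (limma, adjusted p = 0.0126). Under this block 15.1% of all probe sets were called in either direction. The block also called polysomal nad1 lower in darkness than in light (-0.44, limma adjusted p = 0.0365, and 0.0793 without the block) and lower after reillumination than in light (-0.51, adjusted p = 0.0255, and 0.0673 without it). Under the block 25.2% and 15% of all probe sets were called in these 2 comparisons. The reilluminated replicates of nad1 lay apart, at 5.12 and 4.60, and leaving out 1 array moved the difference from light between -0.77 and -0.25. For the other 6 nad1 probe sets, the values for darkness against light lay between -0.19 and 0.16. Those for reillumination against light lay between -0.05 and 0.26, and none was called. The polysomal means of these probe sets were -1.11 to 0.25 from the lower quartile, which leaves little room to see a fall. Without the block limma called 0 of 4 transcripts in polysomal RNA from light to dark, where 17.2% of all probe sets were called, and 0 of 4 from dark to reillumination, where 7.83% were. At an unadjusted p under 0.05 it was 1 in each, nad1 and then nad4.

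Polysomal ccb382 and nad4L were not called in any comparison of conditions. For ccb382 darkness minus light was -0.35 (95% interval -0.91 to 0.20) and reillumination minus light -0.37 (-0.93 to 0.19). For nad4L, whose total RNA level rose in darkness, darkness minus light in polysomal RNA was 0.00 (-0.25 to 0.26), with every value within 0.33 of the lower quartile. The median over the 4 transcripts was -0.35 from light to dark and -0.04 from dark to reillumination, beside -0.02 and 0.00 over all probe sets. Over the 10 probe sets of these genes it was -0.07 and -0.02.

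**Figure D4:**
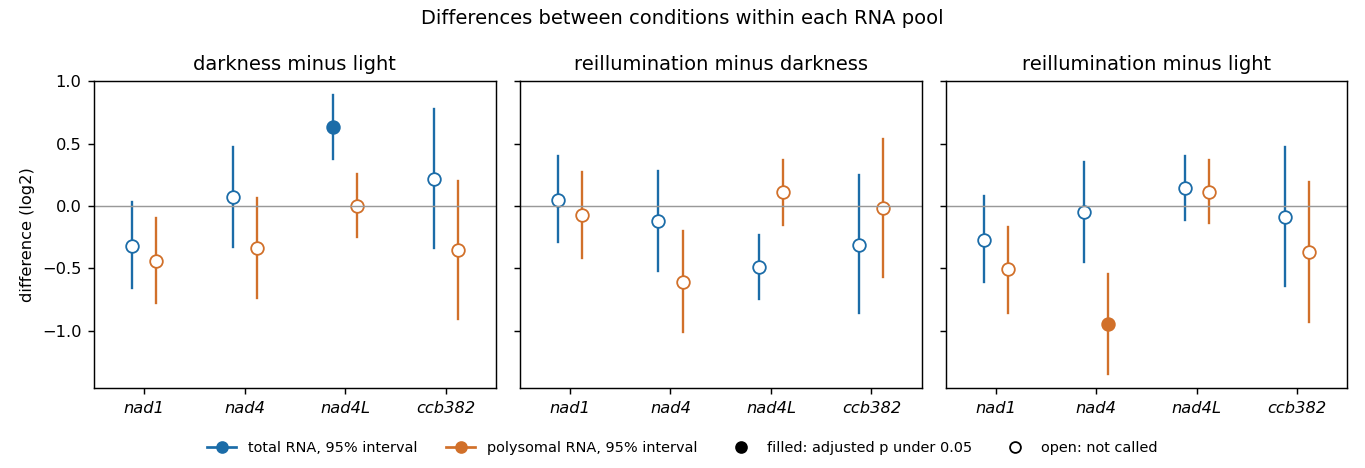
Differences between conditions (log2, vertical axis) for nad1, nad4, nad4L and ccb382 in total RNA (blue) and polysomal RNA (orange), with 95% intervals of the fit and filled points for an adjusted p under 0.05. The filled points are nad4L in total RNA, darkness minus light, at 0.63, and nad4 in polysomal RNA, reillumination minus light, at -0.95.

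Among the 12 other mitochondrion-encoded genes, limma called 0 in polysomal RNA from light to dark, dark to reillumination and light to reillumination. At an unadjusted p under 0.05 it was 1, 0 and 0. Of all probe sets 17.2%, 7.83% and 8.88% were called in these 3 comparisons. In total RNA limma called 1 of the 12, ccb206 after reillumination against light (0.45 ± 0.12, limma adjusted p = 0.0382). The total RNA shares of all probe sets were 9.46%, 0% and 7.91% in the same order. In total RNA from light to dark nad9 was at 0.45 with an adjusted p of 0.0713, and with the block it was called higher (adjusted p = 0.0327), where 15.8% of all probe sets were called. Of the 69 chloroplast-encoded genes 32 were called higher in polysomal RNA from light to dark, where 8.49% of all probe sets were, and 30 lower from dark to reillumination, where 3.2% were. From light to reillumination 2 of the 69 were called lower in polysomal RNA, where 932 of 22746 probe sets were. In total RNA 1 was called higher from light to dark, where 997 of 22746 were, and 0 were called in the other comparisons. Of the 12 nuclear complex I genes 4 were called lower in polysomal RNA from light to dark, where 8.68% of all probe sets were, among them AT2G47690 (-0.81 ± 0.17) and OEP16-3 (-0.64 ± 0.11), and OEP16-3 was called higher again on reillumination (0.51 ± 0.11). In total RNA 0 of the 12 were called between conditions. Of the 5 nuclear genes of the c-type cytochromes, CYTC-2 was called lower in polysomal RNA after reillumination against light (-0.51 ± 0.14) and no other was called between conditions. Whether nad4 differs from these lists was not tested.

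The change of the polysomal-to-total difference between conditions asks whether the effect of light differs between the pools. From light to dark limma called 0 of 4 transcripts, and 1 was under an unadjusted p of 0.05, where 1.09% of all probe sets were called. The value of nad4L was -0.63 ± 0.17 (95% interval -0.99 to -0.26, limma adjusted p = 0.0837), and the block called it (adjusted p = 0.0337) along with 7.53% of all probe sets. It matches in size the rise of 0.63 in total RNA, while polysomal nad4L stayed near the lower quartile, so it is no separate measure of a change in the capture. The values of nad4, ccb382 and nad1 were -0.41 (95% interval -0.98 to 0.15), -0.57 (-1.36 to 0.22) and -0.12 (-0.61 to 0.36). All 4 were below 0, as were 10890 of 22746 probe sets, beside a median of 0.02 over all probe sets. The other nad1 probe sets lay between -0.12 (257327_at) and 0.21 (257325_at). From dark to reillumination 0 of 4 were called, with 1 under an unadjusted p of 0.05, where 0.994% of all probe sets were called, with nad4L at 0.60 ± 0.17 (adjusted p = 0.123) and nad4 at -0.49 ± 0.26 (adjusted p = 0.439). From light to reillumination 0 of 4 and 0% of all probe sets were called, while 621 of 22746 had an unadjusted p under 0.05. There nad4 was at -0.90 ± 0.26 (95% interval -1.47 to -0.34), with an unadjusted p of 0.00479 and an adjusted p of 1.

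The probe sets whose pattern over the 12 arrays was most like each gene's were found by Pearson r among probe sets with 1 gene. For nad4 the 5 closest were the chloroplast-encoded psbA (r = 0.994), clpP, ccsA, matK and rpoC1 (r = 0.984). For ccb382 they were the chloroplast-encoded rpoC2 (r = 0.982), ccsA, rps19 and ndhH, with nad4 in second place (r = 0.979). For nad1 they were the nuclear AT5G27950 (r = 0.993), AT2G41840, AT1G50140, AT2G32000 and AT1G48090 (r = 0.979). For nad4L they were AT2G07777 (r = 0.938), OASA2, the mitochondrial nad9 (r = 0.936), AT1G66800 and AT4G35987. For the mean of the 4 they were ccsA (r = 0.992), psbA, petL, rps19 and clpP. The total and polysomal values of each of the 4 genes did not overlap. Likeness over the 12 arrays therefore cannot be told apart from a shared difference between the pools. Of the probe sets named, psbA, which encodes a reaction-centre protein of photosystem II, differed between the pools by log2 -3.25 ± 0.10. In polysomal RNA psbA was called lower after reillumination than in light (-0.83 ± 0.18, limma adjusted p = 0.014) and than in darkness (-0.86 ± 0.18, adjusted p = 0.0158), and from light to dark it was at 0.03 and not called.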

How the data were processed

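RNA of 12 samples was hybridised to Affymetrix ATH1 arrays. The authors deposited log2 expression values per probe set, made with RMA and affy per the submitters' processing notes, with versions not given in the sources used here. RMA corrects background, quantile-normalizes arrays and summarizes probes, so a shift common to the whole transcriptome is removed. The build is not given in the sources used here. Of 22810 probe sets 64 controls were set aside. The annotation ties 13513 of the other 22746 to 1 gene and 503 to several. Mitochondrial names were matched by symbol or synonym to the TAIR10.1 gene table.

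From the deposited values, limma 3.58.1 (R 4.3.3) fitted 1 mean per group, 6 in all, with 6 residual degrees of freedom and a prior of 5.48. It left total and polysomal RNA of 1 extract unpaired, though their replicate deviations correlated across probe sets (r = 0.295 to 0.486). The p-values are two-sided, adjusted by Benjamini-Hochberg over 22746 probe sets, and called under 0.05. Values after ± are the fit's standard errors. Arrays have no counting depth, and their number limits the precision: the median standard error was 0.13 for a difference of 2 groups. The sample titles number the replicates 1 and 2 without saying whether a number marks a shared experiment. Same-numbered arrays deviated together (r = 0.29 to 0.509 over 15 pairs of groups, across probe sets). The fit with replicate number as a block is therefore given where it changed a call. Named genes were the 4 genes, the other mitochondrion-encoded genes, nuclear lists for complex I, c-type cytochromes and mitochondrial gene expression, and the 5 likest probe sets of each. The members and lists were chosen with earlier results of these data known. Alternatives were the block, other normalizations, a filter, an intensity trend, array weights, fewer arrays and each array left out. Plots come from matplotlib 3.10.9 under Python 3.11.15.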

Additional observations from a re-analysis of the deposited data

How the results depend on the processing

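Of 984 values of the 4 genes under the alternatives, 972 kept their call or lack of one, 11 gained a call and 1 lost it. No called value changed sign, but 23 values of 15 results that were not called did (adjusted p of 0.584 or more): with 1 array left out nad4 in total RNA from light to dark ranged from -0.22 to 0.36 and ccb382 from -0.12 to 0.56. The counts that changed were the following, and the cause was not tested. With the replicate block 1 transcript was called in polysomal RNA from light to dark, 1 from dark to reillumination and 2 from light to reillumination. In the change of the polysomal-to-total ratio from light to dark 1 was called. Of all probe sets the block called 25.2%, 15.1%, 15% and 7.53% in these comparisons, in the same order. The block changed no other call of the 4 genes. Among their other probe sets it called nad1 257327_at higher from dark to reillumination in polysomal RNA (0.40, adjusted p = 0.0461) and 257321_at lower in polysomal than total RNA in light (-0.40, adjusted p = 0.0289) and darkness (-0.41, adjusted p = 0.0323). With only the arrays of the groups compared, 1 was called in polysomal RNA from light to dark (nad1, adjusted p = 0.0425) and 1 from dark to reillumination (nad4, adjusted p = 0.0438). With each array left out in turn these polysomal counts ranged from 0 to 1, 0 to 1 and, from light to reillumination, 0 to 2. In the last, nad4 was lost without the light polysomal array of replicate 2, and nad1 was gained without the reilluminated polysomal array of replicate 1 (-0.77, adjusted p = 0.0121, against -0.25 without replicate 2). The dark-to-reillumination call of nad4 was gained without either light total array (adjusted p = 0.0337), and the light-to-dark call of nad1 without either reilluminated polysomal array (adjusted p = 0.0273). The median level of the 4 transcripts in total RNA was 3.14 above the lower quartile and 1.09 above the array median. With 12 probe sets tied to several genes added, 22 of 28 mitochondrial probe sets were lower in polysomal RNA for the mean of 3 conditions, instead of 12 of 16 genes. Among all probe sets the block raised the calls of the ratio change from light to dark from 247 to 1712. Levels near the lower quartile limit what can be seen of nad4L and of most nad1 probe sets in polysomal RNA.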

Other observations

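Another 12 probe sets are tied to a mitochondrial gene together with a second gene, in most cases one on chromosome 2. In the ribosome capture, averaged over the 3 conditions, the probe set of atp9 and AT2G07671 was lower by log2 -3.11 ± 0.09 (limma, adjusted p = 4.49e-10) and that of atp1 and AT2G07698 by -2.67 ± 0.12. Both atp genes code for subunits of the ATP synthase. The probe set of cob, for cytochrome b, and AT2G07727 was at -2.27 ± 0.13, and that of rps3 and rpl16, for mitochondrial ribosomal proteins, at -2.74 ± 0.13. The probe sets that tie nad1 to AT2G07701 and to AT2G07702 were at -0.19 ± 0.09 and -0.12 ± 0.08 and not called (adjusted p = 0.121 and 0.223).

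Between conditions 5 calls were made among these probe sets. Of all probe sets, 9.46% were called in total RNA from light to dark, 0% from dark to reillumination and 7.91% from light to reillumination. In polysomal RNA these shares were 17.2%, 7.83% and 8.88%. The count was not tested against these shares. The probe set of cox3 and AT2G07687 was higher in dark than in light total RNA (0.54 ± 0.15, adjusted p = 0.0464) and after reillumination (0.61 ± 0.15, adjusted p = 0.0295), and that of rps4 and AT2G07734 was higher after reillumination (0.55 ± 0.12, adjusted p = 0.0158). In polysomal RNA the atp9 probe set rose from light to dark (0.66 ± 0.16, adjusted p = 0.0149), and that of rps3 and rpl16 fell by 0.79 ± 0.22 on the log2 scale from dark to reillumination (adjusted p = 0.0493). These values are given with no account of which genome copy they come from.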
